A study of Mus musculus with 24 samples.

Results

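The heat shock genes described here, 10 of the 55471 annotated mouse genes, were followed through the oocyte-to-embryo transition and after depletion of an m6A reader. They were listed by name and not by a cut on their values, with earlier results of these data known. They are the stress-inducible HSP70 genes Hspa1a and Hspa1b, the HSP70 genes Hspa5 and Hspa8, the cytosolic HSP90 genes Hsp90aa1 and Hsp90ab1, the HSP110 gene Hsph1, the mitochondrial chaperonin gene Hspd1, and the transcription factor genes Hsf1 and Hsf2. SLIM-seq, an m6A immunoprecipitation followed by sequencing for small amounts of RNA, was made from MII oocytes, late 1-cell (L1C) embryos and late 2-cell (L2C) embryos, with 3 antibody (IP) and 3 input libraries at each stage. Oocytes and embryos came from superovulated wild-type B6D2F1 females 8 weeks old, and the embryos from matings with B6D2F1 males. In the other experiment zygotes received Cas13d mRNA with 3 crRNAs against Ythdc1, the gene of a nuclear m6A reader (KD, 3 libraries), or Cas13d mRNA without a crRNA (NC, 3 libraries), and both groups were collected as L2C embryos. Because NC embryos received no crRNA, an effect of the Ythdc1 target and an effect of carrying any crRNA cannot be told apart.

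Heat shock proteins are chaperones, which bind unfolded proteins and help them to fold, and cells make more of the inducible ones when proteins unfold. HSF1 is the main transcription factor of that response and binds repeated nGAAn units in promoters. In mouse, Hspa1a and Hspa1b are known as early transcripts of the embryonic genome, and Hsf1 as a maternal factor of the oocyte.

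SLIM-seq libraries held 11107421 to 39739950 estimated counts, KD and NC libraries with whole counts 8696476 to 14500548. The counts of KD replicate 3 end on chromosome 7, so Hspa5, Hsph1 and Hspd1 were compared in 3 KD and 3 NC libraries of the merged table, and the other 7 genes in 2 KD and 3 NC libraries. Levels are given as counts scaled to a common library size (CPM) after TMM scaling, which also evens out composition. CPM from the merged table are relative to the counts in it and therefore higher. The 10 oocyte markers summed to 9603 to 11360 CPM in MII inputs, to 5819 to 6726 CPM at L1C and to 761 to 787.8 CPM at L2C. The 7 of 8 listed 2-cell markers that were found summed to 32.8 to 39.5, 310.1 to 402 and 449.7 to 609.9 CPM in the same order, so the libraries follow their labelled stages. Of the 10 cumulus and granulosa cell markers, Ptx3 was at 0 in every input library and Foxl2 at 3 counts or fewer. Only 1 or 2 of the 10 were at 0 in any input library, so most were detected. The 10 markers together came to 79.2 to 90.6 CPM in MII inputs, and 63.1 to 69.4 CPM at L1C. L2C inputs held 347 to 375.2 CPM, where Amhr2 (246 CPM) and Nr5a2 (114.5 CPM) made up most of it. How many oocytes or embryos a library pooled, and whether replicates were collected separately, is not given in the sources used here, so p-values measure only the spread between these libraries. A share of the pooled RNA cannot tell fewer transcripts per embryo from more RNA of other genes.

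The upstream sequences of Hspa1a and Hspa1b are shown because these genes are near-copies of each other. Hspa1a (ENSMUSG00000091971) lies at chr17:34969190-34972156 and Hspa1b (ENSMUSG00000090877) at chr17:34956436-34959238, both on the minus strand of GRCm38 and 9951 bp apart, and their coding sequences are 99.4% identical. Each is a gene without introns. In the 160 bases before the RefSeq start (GRCm38.p6), printed here 5′ to 3′ on the minus strand, capitals mark the 2-unit heat shock element GAANNTTC.
Hspa1a, chr17:34972157-34972316: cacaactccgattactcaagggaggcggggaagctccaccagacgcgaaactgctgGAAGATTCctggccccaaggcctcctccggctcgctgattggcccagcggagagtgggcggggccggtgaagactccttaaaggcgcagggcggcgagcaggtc
Hspa1b, chr17:34959239-34959398: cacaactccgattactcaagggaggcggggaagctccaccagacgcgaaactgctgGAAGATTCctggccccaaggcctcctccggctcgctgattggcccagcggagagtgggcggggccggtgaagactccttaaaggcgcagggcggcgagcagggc

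The 160 bases are the same in 159 positions, and 247 of the 250 bases before each start are the same. Of 32841 promoters searched over 250 bases on both strands, 12.8% hold a 2-unit element (GAANNTTC or TTCNNGAA). A 3-unit element, in which GAA and TTC alternate with any 2 bases between units and which also counts as a 2-unit match, is in 0.466% of them. The ER stress element, CCAAT and CCACG with 9 bases between them, is in 0.113%. RefSeq promoters matched 6 of the 10 genes. The other sites shown, with the motif in capitals, are those of the chaperone genes with the rarer elements and of Hsph1.
Hspd1, chr1:55088053-55088082, minus strand: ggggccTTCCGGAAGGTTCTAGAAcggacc
Hspa5, chr2:34772020-34772049, plus strand: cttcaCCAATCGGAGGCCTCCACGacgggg
Hsph1, chr5:149636351-149636380, minus strand: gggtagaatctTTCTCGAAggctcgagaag

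In Hspd1 the element runs from -144 to -127 relative to one of its RefSeq starts, and this site lies within the annotated span of the gene. The window of another RefSeq start of Hspd1, at the end of that span, held no heat shock or ER stress element. In Hspa5 the element runs from -65 to -47. Hsph1 has a pair of RefSeq starts, and its element runs from -33 to -26 relative to one and from -54 to -47 relative to the other. The window of Hsf2 held none of these 3 motifs. These matches describe letters in a window and were not compared with binding.

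Across stages, RNA of the inducible HSP70 genes appeared after fertilization, the ER chaperone Hspa5 rose at both steps, and Hsp90aa1 and Hspd1 fell at both. From L1C to L2C 7 of the 10 genes rose, 2 fell and 1 did not pass the test (edgeR quasi-likelihood test, Benjamini-Hochberg adjusted p under 0.05 over 19903 genes, n = 3 per stage). Among all genes tested 44.1% were called higher, 38.8% lower and 82.9% in either direction, so that being called is common in this comparison. The median log2 change of the 10 was 1.36, against 0.17 over all genes. From MII to L1C 3 were higher and 4 lower, against 31.9% and 24.3% of all genes (56.2% in all), with a median of -0.06 against 0.16. From MII to L2C 5 were higher and 3 lower, against 47.5% and 37.1% of all genes (84.6% in all), with a median of 0.95 against 0.40.

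**Figure D1:**
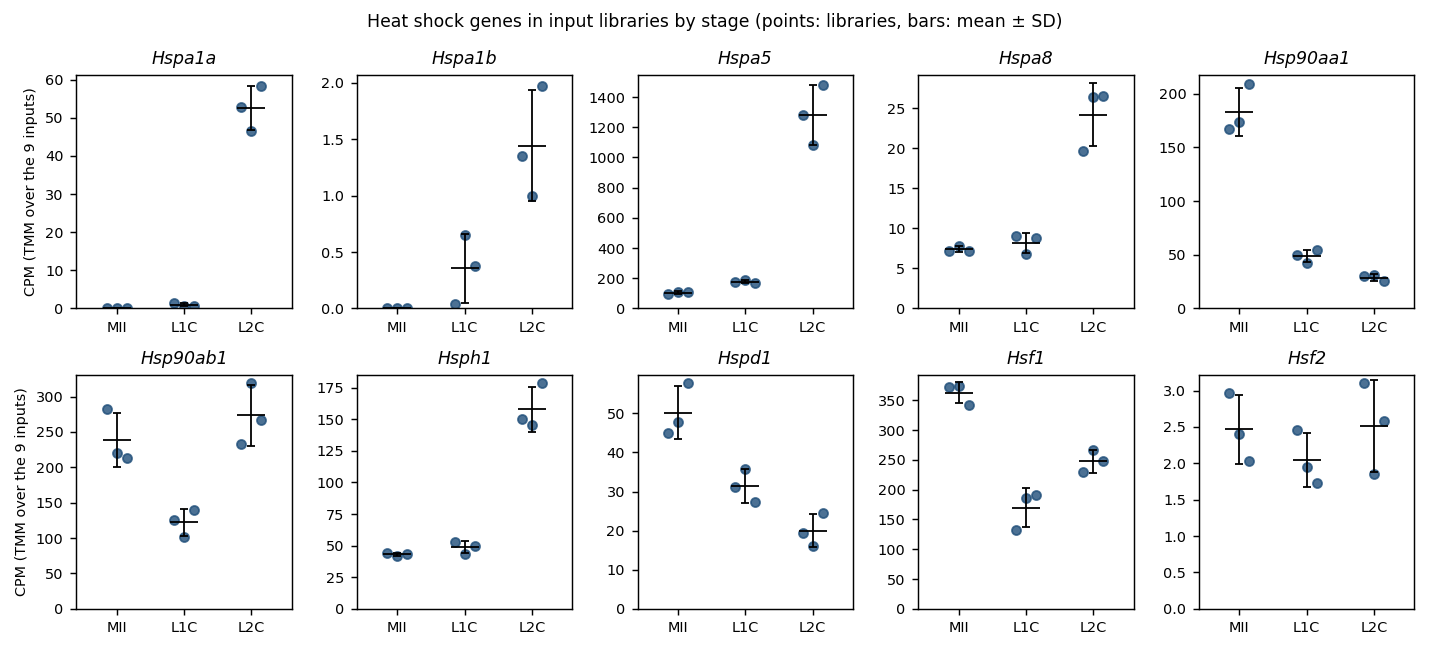
Level of each gene in the input libraries, in TMM-scaled CPM (vertical axes, from 0, 1 scale per gene), at MII, L1C and L2C (horizontal axes), with a point per library and bars for mean ± SD (n = 3). Hspa1a is at 0 in MII inputs and at 46.5 to 58.2 CPM in L2C inputs, while Hsp90aa1 steps down from 167 to 209 CPM at MII to 25.2 to 31.0 at L2C.

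Hspa1a, the major inducible cytosolic HSP70 gene, had 0 counts in the 3 MII inputs. The L1C inputs held 1.48, 0.696 and 0.755 CPM, which are 35, 15 and 14 counts. The L2C inputs held 53.0, 46.5 and 58.2 CPM, so the 3 stages did not overlap. Hspa1a rose 52.6-fold from L1C to L2C (log2 5.72, SE 0.27, edgeR adjusted p = 6.80e-10). Against MII only lower bounds can be given, computed with a floor of 3 counts per library: Hspa1a was at least 6.54-fold higher at L1C and at least 352-fold higher at L2C (edgeR adjusted p = 2.03e-05 for L1C against MII).

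Hspa1b, its neighbour and near-copy, was also at 0 counts in all MII inputs. It reached 0.0423, 0.650 and 0.377 CPM at L1C (1, 14 and 7 counts) and 1.35, 0.999 and 1.97 CPM at L2C (40, 21 and 78 counts). L2C libraries were above all L1C libraries, at a level far under that of Hspa1a. Hspa1b rose 4.12-fold from L1C to L2C (log2 2.04, SE 0.62, edgeR adjusted p = 0.00853). Leaving out 1 library gave log2 changes from 1.46 to 2.85, the latter without L1C input replicate 2. The call was lost without L2C input replicate 3 (1.72, edgeR adjusted p = 0.0537). Against MII it was at least 9.65-fold higher at L2C. No fold is given for L1C against MII, since L1C input replicate 1 held 1 count, under the floor. Since reads of the coding sequence can fit either gene, how the reads divide between Hspa1a and Hspa1b is uncertain. With both summed to 1 feature the rise from L1C to L2C was 5.33 in log2 (SE 0.21).

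A further gene shares these reads. Gm20481, annotated as protein-coding, lies over Hspa1a on the plus strand and contains its whole coding sequence. It held 0, 0.200 and 0.225 CPM in MII inputs. L1C inputs held 0.634, 3.34 and 1.40 CPM of it, and L2C inputs 54.5, 63.9 and 77.9 CPM. It thus took about as many counts as Hspa1a at L2C. The sources differ on whether the libraries kept strand, and without strand reads of the pair cannot be told apart. With the counts of Gm20481 added to those of Hspa1a, the rise from L1C to L2C was 5.41 (SE 0.28).

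Hspa5 (ENSMUSG00000026864, chr2:34771970-34777547, plus strand) encodes BiP, the HSP70 of the endoplasmic reticulum. MII inputs held 97.0, 109.7 and 109.8 CPM. L1C inputs held 174.8, 185.9 and 167.4 CPM. L2C inputs held 1278, 1085 and 1480 CPM, above every library of the earlier stages, which did not overlap each other either. Hspa5 rose 1.67-fold from MII to L1C (log2 0.74, SE 0.13, edgeR adjusted p = 2.49e-04) and 7.28-fold from L1C to L2C (log2 2.86, SE 0.14, edgeR adjusted p = 1.10e-10). Between MII and L2C the difference was 12.1-fold.

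Hspa8 (ENSMUSG00000015656, chr9:40800984-40810087, plus strand), the constitutive cytosolic HSP70 gene, held 7.19, 7.84 and 7.16 CPM at MII. It held 9.01, 6.78 and 8.79 CPM at L1C, overlapping MII, and 19.6, 26.4 and 26.5 CPM at L2C, above both. Hspa8 rose 2.95-fold from L1C to L2C (log2 1.56, SE 0.18, edgeR adjusted p = 1.46e-06). From MII to L1C the log2 difference was 0.15 (SE 0.18, edgeR adjusted p = 0.519).

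The annotated gene held a small part of the counts on its sequence. Processed pseudogenes are copies of an mRNA inserted elsewhere in the genome, and 12 of them match the coding sequence of Hspa8 with at least 85% identity over at least 50% of its length. Together they held 93.8% of the counts on gene and pseudogenes in MII inputs, and at L1C and L2C 92.5% and 91.1%. Of these pseudogenes, Gm8355 (98.7% identity) lies inside the span of the protein-coding gene Nmbr and Gm15604 (86.6%) inside that of Cpa6, and reads counted to Nmbr and Cpa6 are not in these shares. Nmbr held 4.65, 3.41 and 8.38 CPM of library size at MII, L1C and L2C and Cpa6 1.54, 2.10 and 68.0 CPM, and how much of this lay on the copies was not tested. In NC libraries, counted by another pipeline, they held 13.0%, and in KD libraries 16.6%. One copy, Gm15459, is 99.7% identical and held 95.3, 87.9 and 227 CPM of library size at MII, L1C and L2C. The pseudogenes were looked at after the values of the genes were seen. With the copies added, Hspa8 rose by 1.30 in log2 from L1C to L2C (SE 0.11), and the difference from MII to L1C was -0.12. Within the span of Hspa8 lie the snoRNA genes Snord14c, Snord14d and Snord14e.

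**Figure D2:**
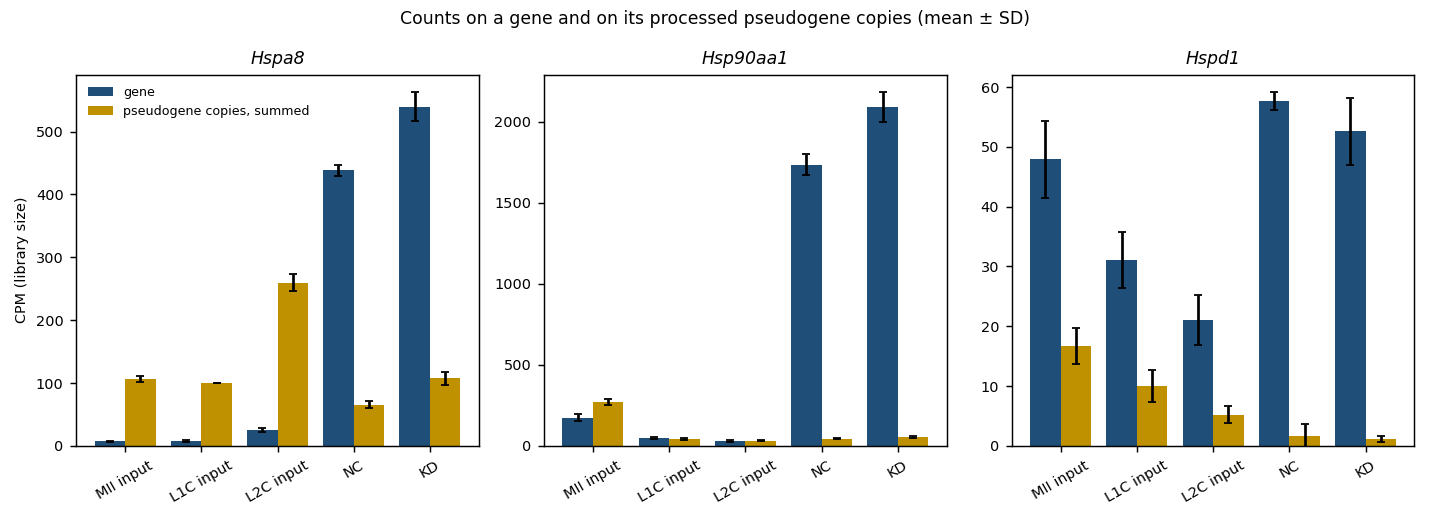
Counts on Hspa8, Hsp90aa1 and Hspd1 (blue) and summed over their processed pseudogene copies (yellow), in CPM of library size (vertical axes, from 0), for 3 SLIM-seq input groups and for NC and KD (horizontal axes), as mean ± SD (n = 3, KD n = 2). In SLIM-seq inputs the copies of Hspa8 hold 91.1% to 93.8% of the counts, in NC 13.0%.

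Hsph1 (ENSMUSG00000029657, chr5:149614287-149636376, minus strand) encodes an HSP110, which exchanges the nucleotide of HSP70s. It held 44.4, 41.6 and 43.4 CPM at MII and 52.5, 43.3 and 49.8 CPM at L1C, ranges that overlapped. At L2C it held 150.5, 145.3 and 178.4 CPM. Hsph1 rose 3.26-fold from L1C to L2C (log2 1.70, SE 0.13, edgeR adjusted p = 1.19e-08).

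The HSP90 genes, whose proteins hold client kinases and receptors ready for activation, went separate ways. Hsp90aa1 (ENSMUSG00000021270, chr12:110690605-110702728, minus strand), the inducible form, held 166.7, 173.1 and 208.6 CPM at MII. At L1C it held 50.2, 42.3 and 54.0 CPM, and at L2C 29.9, 31.0 and 25.2 CPM. No range overlapped the next. Hsp90aa1 fell 3.74-fold from MII to L1C (log2 -1.90, SE 0.14, edgeR adjusted p = 9.23e-08) and 1.70-fold from L1C to L2C (log2 -0.77, SE 0.14, edgeR adjusted p = 1.46e-04). Its 3 pseudogene copies held 60.9%, 47.3% and 51.0% of the counts on gene and pseudogenes at MII, L1C and L2C, and 2.55% in NC. With these pseudogenes added, the falls were -2.33 and -0.66 in log2. One of them, Gm12346 (99.5% identity), lies inside the span of the protein-coding gene Ssh2, and reads counted to Ssh2 were not added. Ssh2 held 85.6, 590.0 and 326.5 CPM of library size at MII, L1C and L2C, more than Hsp90aa1 itself at L1C and L2C, and how much of this lay on the copy was not tested.

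Hsp90ab1 (ENSMUSG00000023944, chr17:45567775-45573271, minus strand), the constitutive form, held 282, 221 and 213 CPM at MII, 125, 102 and 140 CPM at L1C and 234, 320 and 266 CPM at L2C. The dip at L1C stood clear of both other stages, which overlapped each other. It fell 1.95-fold from MII to L1C (log2 -0.97, SE 0.16, edgeR adjusted p = 1.57e-04) and rose 2.23-fold from L1C to L2C (log2 1.16, SE 0.16, edgeR adjusted p = 9.48e-06). Its copies held at most 1.66% of the counts in any of the inputs, NC or KD. L2C against MII gave 0.19 (SE 0.16, edgeR adjusted p = 0.261), and -0.135 when the stages were compared in the fit of all 18 libraries.

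Hspd1 (ENSMUSG00000025980, chr1:55077835-55088243, minus strand), whose span overlaps that of its partner gene Hspe1 on the other strand, encodes the chaperonin that folds proteins in mitochondria. It held 44.9, 47.8 and 57.8 CPM at MII, 31.1, 35.8 and 27.2 CPM at L1C and 19.3, 16.1 and 24.4 CPM at L2C. Each stage lay under the one before. Hspd1 fell 1.60-fold from MII to L1C (log2 -0.68, SE 0.17, edgeR adjusted p = 0.00429) and 1.57-fold from L1C to L2C (log2 -0.65, SE 0.17, edgeR adjusted p = 0.00312). Its 9 pseudogene copies held 19.9% to 25.8% of the counts on gene and copies over the 3 input groups.

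Hsf1 (ENSMUSG00000022556, chr15:76477422-76501913, plus strand) held 372, 374 and 343 CPM at MII. At L1C it held 131.7, 186.9 and 190.6 CPM, and at L2C 229, 267 and 248 CPM. No stage overlapped another, with L1C lowest. Hsf1 fell 2.14-fold from MII to L1C (log2 -1.10, SE 0.14, edgeR adjusted p = 1.92e-05). It rose 1.46-fold from L1C to L2C (log2 0.55, SE 0.14, edgeR adjusted p = 0.00245), a call that was lost in the fit of all 18 libraries (log2 0.308, edgeR adjusted p = 0.117).

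Hsf2 (ENSMUSG00000019878, chr10:57486385-57513135, plus strand), a related factor, was low at every stage, at 2.97, 2.40 and 2.03 CPM at MII, 2.45, 1.95 and 1.73 CPM at L1C and 3.11, 1.86 and 2.58 CPM at L2C. The stages overlapped, and no comparison between them passed the test (edgeR adjusted p from 0.321 to 0.918).

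Ordered by deposited TPM, which divides by the length of the whole gene span, Hsp90ab1 was highest in MII inputs (360 ± 65.4 TPM, SD, n = 3), followed by Hspa5 (156 ± 7.88). Hsp90aa1 (121 ± 12.8) and Hsf1 (118 ± 7.63) came next and overlapped. In CPM per kb of exon both stood above Hspa5 at MII. Hspd1, Hsph1, Hspa8 and Hsf2 followed at 38.9, 15.6, 6.58 and 0.735 TPM without overlap, and Hspa1a and Hspa1b were at 0. At L2C Hspa5 was highest (1150 ± 183 TPM), then Hsp90ab1 (248 ± 32.6) and Hspa1a (93.3 ± 11.2). Hspa1a thus moved from the last place to rank 3 on this scale, and to rank 5 in CPM per kb of exon, behind Hsf1 and Hsph1. Hspa8, Hsp90aa1 and Hspd1 overlapped their neighbours there at 13.0, 11.5 and 9.34 TPM, and Hspa1b (2.73 TPM) stayed above Hsf2 (0.453 TPM). All these ranks leave out the pseudogene copies, and that of Hspa1a leaves out Gm20481. The copies held 93.8% and 91.1% of the counts on Hspa8 and its copies at MII and L2C, and for Hsp90aa1 60.9% and 51.0%. Ranks with such counts added were not computed.

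Protein-coding genes whose log2(CPM + 1) closely followed Hspa1a over the 9 input libraries, among 8279 genes with a mean of at least 10 CPM, included Gabpa and B020004J07Rik (Pearson r of 0.9995 and 0.9992). Gabpa held 0.263, 2.54 and 476.8 CPM of library size at MII, L1C and L2C. The 3 that followed Hsf1 most closely were Eno1b, Ap2a1 and Ptbp1 (r of 0.9926, 0.9903 and 0.9897), and Eno1b held 91.9, 27.4 and 56.9 CPM. The 9 points share 3 stages, so such values describe the stage means above all.

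Related genes were taken from 8 lists of chaperones, their helpers and their regulators. From L1C to L2C 47 of the 85 that were tested rose and 25 fell, where 44.1% of all genes were called higher and 38.8% lower. HSP70 and HSP90 co-chaperones rose in 15 of 21 and fell in 5, with a median log2 change of 1.98 against 0.17 over all genes, led by Bag5 (5.14) and by the HSP90-binding immunophilin gene Fkbp4 (3.94). Of 9 chaperonin genes 6 rose and 3 did not pass, and the TRiC subunits Cct6a (6.12) and Tcp1 (2.51) had the smallest p. The median of this list was 0.86. HSP40 genes were split, with 8 of 22 higher, such as Dnajb9 (5.48), and 10 lower, such as Dnajb4 (-4.80), and a median of -0.27. Of 8 HSP70 and HSP110 relatives 3 rose, among them Hspa4 (2.89), and 3 fell, among them Hspa4l (-2.28), with a median of 0.03. Of 15 ER stress genes 9 rose, led by Sdf2l1 (3.77) and Atf4 (1.99), and 4 fell, among them the sensor genes Atf6 (-1.56) and Ern1 (-1.36), with a median of 0.56. Of 6 further factors and regulators of heat shock transcription 4 rose, including the acetyltransferase gene Ep300 (3.01) and the deacetylase gene Sirt1 (3.83), and 2 fell, including Hsf5 (-3.53), with a median of 2.25. The small heat shock protein gene Hspb1 rose (5.26) and Hspb6 fell (-0.77), with a median of 2.24 over this pair. Of the HSP90 relatives the mitochondrial Trap1 rose (1.10) while Hsp90b1 did not pass (median 0.56). From MII to L1C 15 of these 85 genes were higher and 34 lower, beside 31.9% and 24.3% of all genes. From MII to L2C 46 were higher and 32 lower, beside 47.5% and 37.1%.

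IP libraries were set against inputs of the same stage, which gives the relative m6A level of an RNA as log2 IP/input. Hsp90aa1 was enriched in the IP at all 3 stages and Hsf1 was depleted at all 3. Hspa5 and Hsph1 were enriched in MII oocytes and depleted in L2C embryos. At MII 3 of the 8 genes with counts were enriched and 1 was depleted, against 17.7% and 21% of the 21950 genes tested (38.6% in all, edgeR, adjusted p under 0.05). At L1C 1 of 10 was enriched and 2 were depleted, against 15.8% and 18.2% of all genes (33.9% in all). At L2C 2 were enriched and 5 depleted, against 22% in each direction (44% in all). The medians of log2 IP/input over the heat shock genes were 0.29, -0.26 and -0.69 at MII, L1C and L2C, against 0.00, 0.07 and 0.09 over all genes. IP and input values in this comparison come from the joint scaling of all 18 libraries, so that input values differ somewhat from those of the stage comparison. Scaling to library size alone moved log2 IP/input of the median gene by 0.199, 0.3 and 0.253 at MII, L1C and L2C.

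**Figure D3:**
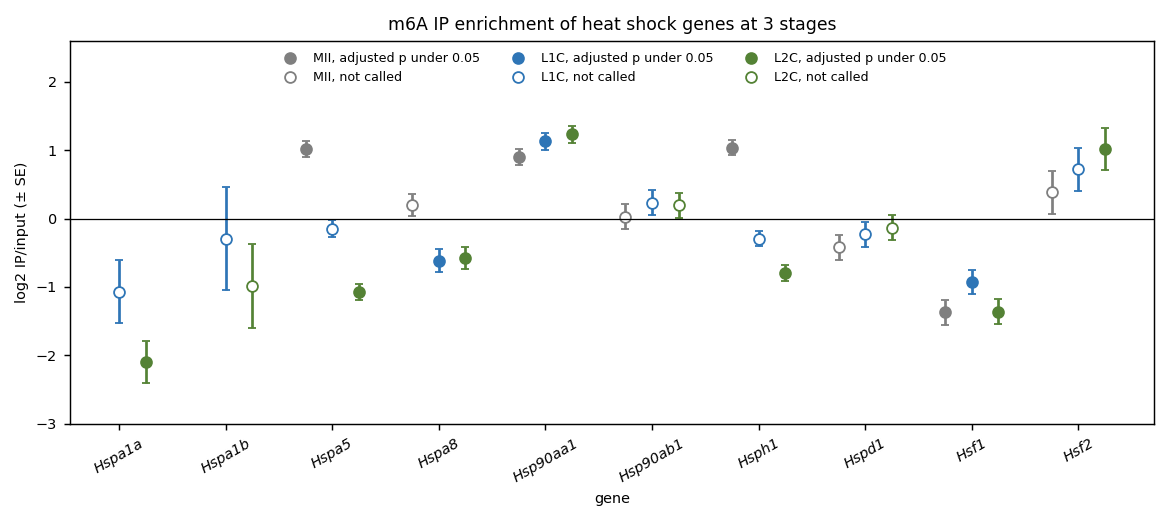
Relative m6A level as log2 IP/input (vertical axis, point with SE, n = 3 IP and 3 input libraries per stage) for the heat shock genes (horizontal axis) at MII (grey), L1C (blue) and L2C (green), with filled points for an adjusted p under 0.05. Hspa5 and Hsph1 lie above 0 at MII and below it at L2C, while Hsp90aa1 stays between 0.91 and 1.23.

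Hspa1a IP libraries at L2C held 14.8, 9.96 and 10.4 CPM, against 51.3, 44.1 and 56.4 CPM in the inputs on the same scaling. All IPs lay under all inputs, and log2 IP/input came to -2.10 (SE 0.31, edgeR adjusted p = 6.84e-05), a 4.29-fold depletion. Gm20481, over the same sequence, held 0, 2.62 and 0 CPM in these IPs, and with its counts added the value was -3.17 (SE 0.28). At L1C Hspa1a held 0.489, 0.142 and 0.902 CPM in the IPs and 1.70, 0.791 and 0.848 CPM in the inputs, which overlapped. Its value of -1.07 there (SE 0.46, edgeR adjusted p = 0.0909) passed the test with DESeq2 (adjusted p = 0.0239), without the filter on low counts (edgeR adjusted p = 0.00743), without L1C IP replicate 3 (-1.90, edgeR adjusted p = 0.0106) and with Gm20481 added (-2.11, edgeR adjusted p = 2.23e-04). It did not pass with the replicate block (-1.15, edgeR adjusted p = 0.0646), with library size alone (-0.77, edgeR adjusted p = 0.195), in only the groups compared (-1.09, edgeR adjusted p = 0.168), with Hspa1b summed in (-0.825, edgeR adjusted p = 0.0887) or without any of the other 5 libraries, where it reached -0.612. Hspa1b did not pass at L1C (-0.29, SE 0.75, edgeR adjusted p = 0.809) or L2C (-0.98, SE 0.61, edgeR adjusted p = 0.209). At MII both genes were at 0 or 1 count in IP and input, and no enrichment was computed.

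Hspa5 held 260, 243 and 269 CPM in MII IPs against 118.7, 131.6 and 130.7 CPM in MII inputs. At L1C the IPs held 175.6, 163.8 and 201.8 CPM and the inputs 200.1, 211.4 and 188.1 CPM. At L2C the IPs held 553, 634 and 569 CPM and the inputs 1238, 1028 and 1433 CPM. Its RNA was thus above input in the IPs at MII, in an overlapping range at L1C and below input at L2C. For Hspa5, log2 IP/input reached 1.02 at MII (SE 0.12, edgeR adjusted p = 1.59e-06), then -0.15 at L1C (SE 0.12, edgeR adjusted p = 0.375) and -1.07 at L2C (SE 0.12, edgeR adjusted p = 1.10e-06). The difference itself was called for L1C against MII (-1.17, SE 0.17, edgeR adjusted p = 1.97e-04), for L2C against L1C (-0.93, SE 0.17, edgeR adjusted p = 0.00226) and for L2C against MII (-2.09, SE 0.17, edgeR adjusted p = 1.61e-07).

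Hsph1 held 112.5, 113.3 and 94.0 CPM in MII IPs against 54.3, 49.9 and 51.6 CPM in inputs. In L2C embryos the order was turned, with 87.1, 92.3 and 84.0 CPM in IPs against 145.7, 137.7 and 172.7 CPM in inputs. For Hsph1 it reached 1.04 at MII (SE 0.12, edgeR adjusted p = 6.42e-07), then -0.29 at L1C (SE 0.11, edgeR adjusted p = 0.0543) and -0.79 at L2C (SE 0.11, edgeR adjusted p = 1.73e-05). The change was -1.33 for L1C against MII (SE 0.16, edgeR adjusted p = 3.13e-05) and -1.83 for L2C against MII (SE 0.16, edgeR adjusted p = 3.27e-07). For L2C against L1C it was -0.50 (SE 0.16, edgeR adjusted p = 0.0564).

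Hspa8 held 10.9, 11.2 and 8.63 CPM in MII IPs and 8.80, 9.41 and 8.51 CPM in inputs, and log2 IP/input came to 0.20 (SE 0.17, edgeR adjusted p = 0.382). It was depleted at L1C (-0.62, SE 0.17, edgeR adjusted p = 0.00711) and L2C (-0.58, SE 0.16, edgeR adjusted p = 0.00595). Both calls were lost with scaling to library size alone (-0.312 and -0.325), under which the value at MII passed as enriched (0.433, edgeR adjusted p = 0.0363). With the pseudogene copies added, the value was -0.24 at L1C (edgeR adjusted p = 0.0799) and -0.39 at L2C (edgeR adjusted p = 0.00456). The change from MII was -0.81 at L1C (SE 0.23, edgeR adjusted p = 0.0405) and -0.78 at L2C (SE 0.23, edgeR adjusted p = 0.0207). With the copies added these changes were -0.418 (edgeR adjusted p = 0.0957) and -0.57 (edgeR adjusted p = 0.00863), so that the first call was lost. Both calls were also lost, with changes of about the same size, with the replicate number as a block (-0.80 and -0.76, edgeR adjusted p = 0.0971 and 0.0525) and without the filter on low counts (-0.821 and -0.822, edgeR adjusted p = 0.121 and 0.0525). Leaving out 1 library lost the first call for 9 of 12 libraries, with changes from -0.858 to -0.736 and edgeR adjusted p from 0.0644 to 0.0954, and the second for MII IP replicate 2 and L2C input replicate 3.

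Hsp90aa1 IPs stood clear of inputs at every stage. They held 404, 409 and 424 CPM at MII, against 204, 208 and 248 CPM in inputs. At L2C they held 59.0, 67.8 and 67.3 CPM, against 28.9, 29.4 and 24.4 CPM. Its log2 IP/input over the stages, MII first, came to 0.91, 1.13 and 1.23 (SE 0.12 each, edgeR adjusted p = 3.99e-06, 5.66e-07 and 1.91e-07). Its change from MII to L2C did not pass (0.32, SE 0.16, edgeR adjusted p = 0.185). While its RNA fell 6.38-fold between MII and L2C, its relative m6A level stayed above input.

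Hsf1 showed the opposite sign throughout. Its IPs held 155.7, 197.7 and 153.3 CPM at MII against 456, 449 and 408 CPM in inputs. At L1C they held 91.5, 94.7 and 117.7 CPM against 150.9, 212.5 and 214.1 CPM, and at L2C 116.7, 65.3 and 95.6 CPM against 222, 253 and 240 CPM. Its log2 IP/input over the stages, MII first, came to -1.37, -0.93 and -1.36 (SE 0.18 each, edgeR adjusted p = 5.20e-06, 4.82e-04 and 7.42e-06). Because the counts span introns, they do not separate spliced Hsf1 mRNA from intron-containing RNA.

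Hsf2 was enriched at L2C, with IPs of 3.79, 6.86 and 4.41 CPM over inputs of 3.01, 1.76 and 2.50 CPM (log2 1.02, SE 0.30, edgeR adjusted p = 0.0112). This call rests on low counts and was lost without L2C input replicate 2 (0.834, edgeR adjusted p = 0.0608) or without L2C IP replicate 2 (0.741, edgeR adjusted p = 0.0659). At L1C Hsf2 stood at 0.72 (SE 0.31, edgeR adjusted p = 0.0841) and passed with library size alone (1.02, edgeR adjusted p = 0.0149) and in only the groups compared (0.718, edgeR adjusted p = 0.041). At MII it stood at 0.38 (SE 0.32, edgeR adjusted p = 0.379). Hsp90ab1 did not pass at any stage, with values of 0.03, 0.23 and 0.20, but passed at L1C (0.539) and L2C (0.447) with scaling to library size alone. Hspd1 did not pass either, with -0.42, -0.23 and -0.13 at MII, L1C and L2C.

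Changes of enrichment between stages were called for 3 of 8 genes from MII to L1C and 3 of 8 from MII to L2C, all lower. Among all genes 7.33% and 20.3% were called, with 3.13% and 11.1% higher and 4.21% and 9.21% lower. From L1C to L2C 1 of 10 was called, and lower, against 9.47% of all genes (5% higher, 4.47% lower). The median change over the heat shock genes was 0.20 from MII to L1C, 0.09 from MII to L2C and -0.24 from L1C to L2C, against 0.08, 0.06 and 0.00 over all genes, so the first pair of medians had the opposite sign to the called genes. Among related genes, 24 of 87 were enriched and 25 depleted at MII (17.7% and 21% of all genes), 15 and 23 at L1C (15.8% and 18.2%), and 14 and 33 at L2C (22% each). In L2C embryos HSP40 genes were enriched in 6 of 22 and depleted in 10, with a median of -0.27 against 0.09 over all genes. HSP70 and HSP110 relatives were depleted in 6 of 8, such as Hyou1 (-2.28) and Hspa2 (-1.84), with Hspa4l (0.33) enriched and a median of -0.67. Co-chaperones of HSP70 and HSP90 were depleted in 10 of 21, such as Fkbp5 (-2.22) and Bag5 (-1.71), and enriched in 2, Ptges3 (0.96) and Bag1 (0.61), with a median of -0.41. ER stress genes were depleted in 5 of 15 and enriched in 1 (median -0.20), and of 9 chaperonin genes Cct7 (-1.29) was depleted and 8 did not pass (median 0.01). Trap1 (-0.79) was depleted, while Hsp90b1 and the 3 small heat shock protein genes tested did not pass (list medians -0.35 and 0.27). The regulator list held 4 enriched genes of 7, including Sirt1 (1.41) and Hsf5 (0.82), and the other 3 did not pass (median 0.64).

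The 5 letters GGACT, the most usual context of m6A, were counted in the longest protein-coding transcript of each gene. Per kb, Hspa1a held 2.02, Hsf2 1.54, Hsp90aa1 1.52 and Hsf1 1.43, above the median of 1.02 over 21425 transcripts. Hspa5 (1.09) and Hspa1b (1.07) were near it, and Hspd1 (0.825), Hsph1 (0.526), Hspa8 (0.418) and Hsp90ab1 (0.397) below it. Of the genes depleted from L2C IPs, Hspa1a and Hsf1 held more of these letters than the median transcript. Hspa5 was near the median, and Hsph1 and Hspa8 held fewer. Hsp90aa1 and Hsf2, the genes enriched in L2C IPs, both held more. A relation between these letters and the enrichment was not tested.

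The Ythdc1 knockdown was first checked on its target. Ythdc1 held 523, 541 and 519 CPM in the KD libraries and 1080, 1098 and 994 CPM in NC (merged table), which is a KD minus NC difference of -1.004 in log2 (SE 0.062, edgeR adjusted p = 1.34e-10). In KD embryos Hspa1a, Hspa1b and Hsf1 were lower than in NC, while Hspa5, Hspa8, Hsp90aa1, Hsp90ab1 and Hsph1 were higher. Of the 10 genes 5 rose, 3 fell and 2 did not pass. Calls were common in this comparison, at 70.9% of the 7433 genes tested in the merged table (33.5% higher, 37.4% lower) and 66.8% of the 17074 tested over the whole annotation (30.5% higher, 36.4% lower). The median log2 change of the 10 genes was 0.15, against -0.06 and -0.09 over all genes of the merged table and the whole annotation.

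**Figure D4:**
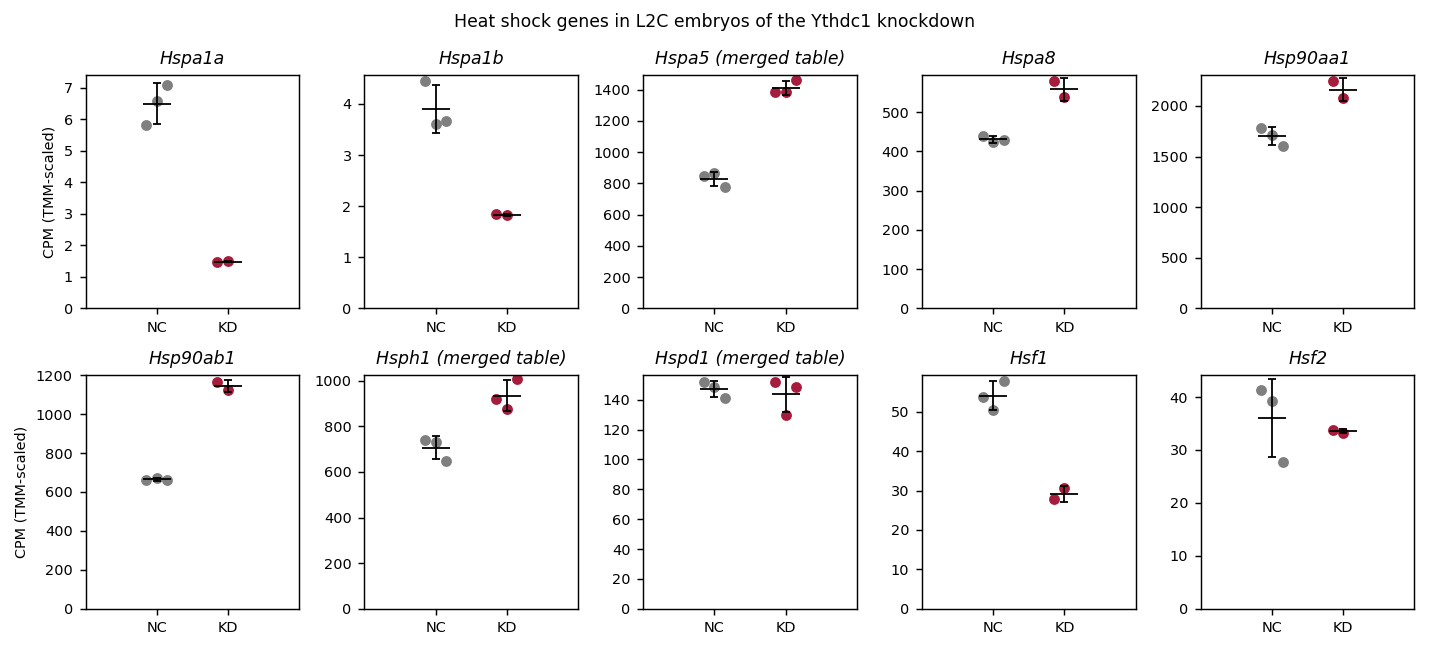
Level of each gene in L2C embryos of the knockdown experiment, in TMM-scaled CPM (vertical axes, from 0, 1 scale per gene; merged table as marked), for NC (grey) and KD (red) with a point per library and bars for mean ± SD (NC n = 3, KD n = 3 in the merged table and 2 elsewhere). KD points of Hspa1a, Hspa1b and Hsf1 lie below all NC points, and those of Hspa5, Hspa8, Hsp90aa1, Hsp90ab1 and Hsph1 above them.

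Hspa1a held 1.48 and 1.498 CPM in KD (16 and 14 counts) and 5.81, 6.58 and 7.09 CPM in NC (85, 86 and 64 counts). It fell 4.32-fold (log2 -2.11, SE 0.30, edgeR adjusted p = 1.66e-05). Hspa1b held 1.85 and 1.82 CPM in KD and 4.44, 3.60 and 3.66 CPM in NC, and fell 2.13-fold (log2 -1.09, SE 0.32, edgeR adjusted p = 0.00742). KD and NC did not overlap for either gene. Summed to 1 feature, they fell by 1.64 in log2 (SE 0.22, edgeR adjusted p = 8.95e-06). Gm20481 was at 0 counts in all these libraries, and how the authors' counting treated reads within both overlapping genes is not given in the sources used here.

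The 2-cell markers moved with these genes, from 1061 to 1123 CPM summed in NC to 331 to 374.6 CPM in KD, where all 7 had lower means. The oocyte markers also had a lower sum in KD (781.2 to 850.6 CPM) than in NC (1578 to 1717 CPM), carried mostly by Oosp1 (368.7 CPM in KD, 933.7 CPM in NC), while Zp3 (105.8 and 74.8 CPM) and Ooep (38.0 and 16.2 CPM) had higher means in KD. The cumulus and granulosa cell markers summed to 266.9 to 272 CPM in KD and 152.3 to 163.1 CPM in NC, mostly Nr5a2 (230.4 and 127.3 CPM), with Fshr and Ptx3 at 0 in both groups. The part of these marker shifts in the heat shock results was not tested.

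Hsf1 held 27.7 and 30.6 CPM in KD and 53.9, 50.5 and 57.8 CPM in NC. It fell 1.85-fold (log2 -0.89, SE 0.11, edgeR adjusted p = 4.61e-06). Hsf2 held 33.9 and 33.3 CPM in KD, within the NC values of 41.3, 39.3 and 27.7 CPM (log2 -0.11, SE 0.14, edgeR adjusted p = 0.495). Without NC replicate 3 its value was -0.274 (edgeR adjusted p = 0.0305).

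Among the chaperone genes Hspa5 held 1384, 1386 and 1462 CPM in KD and 847, 864 and 780.1 CPM in NC. It rose 1.70-fold (log2 0.76, SE 0.061, edgeR adjusted p = 3.63e-09). Hsp90ab1 held 1167 and 1125 CPM in KD and 659, 671 and 663 CPM in NC, and rose 1.73-fold (log2 0.79, SE 0.065, edgeR adjusted p = 6.32e-08). Both had KD values clear of NC.

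Smaller rises were seen for Hsph1, Hspa8 and Hsp90aa1. Hsph1 held 922, 875 and 1008 CPM in KD and 741, 732 and 647 CPM in NC (1.32-fold, log2 0.40, SE 0.070, edgeR adjusted p = 4.38e-05). Hspa8 held 579 and 537 CPM in KD and 439, 424 and 428 CPM in NC (1.30-fold, log2 0.38, SE 0.072, edgeR adjusted p = 2.50e-04). Hsp90aa1 held 2244 and 2081 CPM in KD and 1786, 1714 and 1609 CPM in NC (1.27-fold, log2 0.34, SE 0.067, edgeR adjusted p = 3.08e-04). For all of them the groups did not overlap. Hspd1 held 152.0, 129.9 and 148.5 CPM in KD and 151.9, 148.8 and 141.3 CPM in NC, with a log2 difference of -0.04 (SE 0.087, edgeR adjusted p = 0.710).

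Related genes in the whole-annotation fit were higher in 38 of 84 and lower in 21, beside 30.5% and 36.4% of all genes. The median over all genes was -0.09, and those of the lists are given with them. Chaperonin genes rose in 7 of 9, such as Cct2 (0.65) and Cct4 (0.70), and Hspe1, the partner of Hspd1, fell (-0.30), with a median of 0.43. HSP40 genes rose in 11 of 21, such as Dnaja1 (1.03), and fell in 4, such as Dnaja4 (-2.01), with a median of 0.26. HSP70 and HSP90 co-chaperones rose in 12 of 21, such as Ppid (1.22) and Cdc37 (1.81), and fell in 5, such as Aarsd1 (-3.63), with a median of 0.34. ER stress genes rose in 2 of 14 and fell in 5, led by the stress-induced factor gene Ddit3 (-1.90) and by Calr (-0.71), with a median of -0.21. Of 9 HSP70 and HSP110 relatives 3 rose, among them Hspa4 (0.75), and 3 fell, among them Hspa12a (-3.52), with a median of -0.14. The factor list had Ep300 (0.39) and Hsf3 (1.30) higher and Hsbp1 (-1.13) and Hsf5 (-1.14) lower, with a median of -0.51. Hspb1 rose (0.37, SE 0.12) and Hspb6 fell (-6.99, SE 1.30). The median of -3.31 over this pair is set mostly by the imprecise value of Hspb6. Of the HSP90 relatives Hsp90b1 and Trap1 did not pass (median -0.01).

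L2C inputs of SLIM-seq and NC embryos are both L2C, but they differ in injection and in counting, by whole gene spans against exons, and were not tested against each other. In CPM per kb of exon Hsp90aa1 stood at 7.72 in L2C inputs and at 441 in NC, and Hspa8 at 5.92 and 102. These levels leave out the pseudogene copies, which held 91.1% of the counts on Hspa8 and its copies in L2C inputs and 13.0% in NC, and for Hsp90aa1 51.0% and 2.55%. Hspa1a went the other way, with 18.7 in L2C inputs and 2.23 in NC, as did Hsf1, with 36.9 and 7.77. Gm20481, which lies over Hspa1a, held 68.9 CPM of library size in L2C inputs and 0 in NC. How reads within both genes were counted in NC is not given, and their part in this difference was not tested. Hspa5 was at 319.5 and 76.8. The order of the 10 genes, without copies, thus differs between the experiments, with Hspa5 first in L2C inputs and Hsp90aa1 first in NC.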

How the data were processed

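SLIM-seq estimated counts and TPM were deposited by the authors, who ran kallisto with each of 55471 genes as 1 target that spans its introns. For KD and NC the authors used Trimmomatic and HISAT2 (GRCm38), and deposited counts on exons from featureCounts 2.0.1. The merged table of these counts holds 25739 genes, with 37.5% to 39.0% of KD and NC counts. The methods describe oligo-dT priming, while the labels name polyA RNA and a stranded total RNA kit, so whether strand was kept is unsettled.

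Estimated counts were rounded and fitted with edgeR 4.0.16 in R 4.3.3 (TMM, quasi-likelihood test, Benjamini-Hochberg adjustment over all genes tested), the 9 inputs together for stages, all 18 libraries for IP/input, and KD and NC on their own. The merged table served 3 genes and the whole-annotation counts, without KD replicate 3, the other 7. DESeq2 1.42.0 was the other tool. BLAST 2.17.0 found copies, and Python 3.11.15 with pandas 2.3.3, numpy 2.4.6, scipy 1.17.1 and matplotlib 3.10.9 made tables and figures. Fits were tested on simulated data. Sequences are from RefSeq (GRCm38.p6).

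The genes and lists were chosen with earlier results of these data known. Values are named for the 10 genes, for overlapping genes, for at most 2 list genes per direction with the smallest p, and for the 3 genes most like Hspa1a and Hsf1, 1 of which is not reported here. Copies and the stage comparison in all 18 libraries were added after seeing the data.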

Additional observations from a re-analysis of the deposited data

Results flagged for a closer look

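The interaction test of stage and IP, which compares the relative m6A level between stages, picked out 7 differences, all toward lower enrichment at the later stage (edgeR, adjusted p under 0.05). Among all genes 7.33% were called for L1C against MII, 9.47% for L2C against L1C and 20.3% for L2C against MII. In the same order 4.21%, 4.47% and 9.21% were lower. The 7 differences come from Hspa5, Hsph1 and Hspa8 and are not independent, since L2C against MII combines the other steps. For Hspa5 they were -1.17 in log2 for L1C against MII, -0.927 for L2C against L1C and -2.09 for L2C against MII. For Hsph1 they were -1.33 for L1C against MII and -1.83 for L2C against MII. For Hspa8 they were -0.814 for L1C against MII and -0.778 for L2C against MII, and whether these were called depends on the processing. With pseudogene copies added the value for L1C against MII was -0.418 (edgeR adjusted p = 0.0957). The Hspa8 calls were lost with the replicate number as a block (-0.80 for L1C and -0.76 for L2C, edgeR adjusted p = 0.0971 and 0.0525) and without the filter on low counts (-0.821 and -0.822, edgeR adjusted p = 0.121 and 0.0525), with changes of about the same size, and that for L1C also in 9 of 12 fits that left out 1 library. The input RNA of Hspa5 rose over the same steps, by 0.74 and 2.86 in log2, and that of Hsph1 and Hspa8 rose from L1C to L2C, by 1.70 and 1.56. The part of these changes in RNA level in the differences was not tested.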

How the results depend on the processing

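All 53 called values of single genes kept their direction under the 750 alternatives run for them, and 727 of these stayed called while 23 did not. Of 649 alternatives for the 41 values that were not called, 18 became called and 51 turned sign. Counts of called genes ranged over 6 to 7 for L1C against MII, 8 to 9 for L2C against L1C, 7 to 8 for L2C against MII, 4 to 5, 3 to 4 and 6 to 7 for IP at MII, L1C and L2C, and 7 to 9 for KD. The lower ends for L1C and L2C against MII and for KD hold no lost call. They come from summing Hspa1a and Hspa1b into 1 feature and, for L1C against MII, also from only the groups compared, where Hspa1b was not tested. For changes of enrichment they were 2 to 3 from MII to L1C, 2 to 3 from MII to L2C and 1 to 2 from L1C to L2C, where DESeq2, library size alone and a fit of only the groups compared each gave 2 and leaving out 1 library gave 1 to 2. The second gene there was Hsph1 (DESeq2 -0.543, library size -0.546, only the groups compared -0.68).

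Values turned as follows, none of them called, and the cause was not tested. With copies added, Hspa8 L1C against MII was -0.124, Hspd1 IP at L2C 0.121, and the change of enrichment from L1C to L2C -0.152 for Hspa8 and -0.165 for Hsp90aa1. In the fit of all 18 libraries L2C against MII was -0.135 for Hsp90ab1 and -0.293 for Hsf2. Hsf2 there was -0.0357 without a filter and -0.0336 in only the groups compared. With library size alone IP at L1C was 0.153 for Hspa5, 0.0102 for Hsph1 and 0.0705 for Hspd1, and IP at L2C 0.124 for Hspd1. The change of enrichment from L1C to L2C of Hspa8 was -0.0109 with DESeq2, -0.0135 with library size, -0.00162 without a filter and -0.15 in only the groups compared, where Hsp90aa1 was -0.0839 and Hspd1 -0.0819. From MII to L2C that of Hsp90ab1 was -0.00777 in only the groups compared, and that of Hsf1 -0.0737 with DESeq2, -0.026 without a filter, -0.0176 with the replicate block and -0.168 in only the groups compared. Leaving out 1 library gave ranges across 0 for Hsf2 L2C against MII (-0.154 to 0.188), IP of Hsp90ab1 at MII (-0.172 to 0.183), of Hspa1b at L1C (-0.901 to 0.526) and of Hspd1 at L2C (-0.282 to 0.0337), Hspd1 in KD (-0.0727 to 0.036), and the change of enrichment from L1C to L2C of Hspa8 (-0.0952 to 0.151), Hsp90ab1 (-0.171 to 0.0914) and Hspd1 (-0.0497 to 0.267) and from MII to L2C of Hsf1 (-0.193 to 0.202).

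Same-numbered libraries did not deviate together (correlations of deviations from -0.301 to 0.295), so the numbers were not taken as pairs. The paper places IP and input RNA in common batches without saying which numbers share one. With the replicate block the counts of called genes were 7, 9 and 8 for stages, 4, 3 and 7 for IP, 2, 1 and 2 for changes, where Hspa8 lost both calls, and 9 for KD, where Hsf2 was gained (-0.263). Leaving out 1 of the 2 whole KD libraries leaves a lone sample, which is assumed to vary like NC, and leaving out KD replicate 3 changes only the 3 genes of the merged table. Library size alone shifted the median of all genes by 0.144 for L2C against MII and by -0.124 for KD in the merged table. For Hspa1a and Hspa1b at MII only bounds can be given. Ythdc1 fell under every alternative run for it.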
